A study of Mus musculus with 12 samples.

Results

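The genes described here make cholesterol and fatty acids or set how much of them a cell makes. They are 30 of the 55421 genes in the deposited tables, taken by gene symbol: 7 enzymes from acetyl-CoA to farnesyl diphosphate (the mevalonate steps), 11 enzymes from squalene to cholesterol, 6 genes of sterol control and transport, and 6 fatty acid enzymes. Their RNA was measured by RNA-seq in B16F10, a mouse melanoma line grown in dishes, in 4 groups of 3 libraries. Irradiated Bub1KO cells, with Bub1 disrupted by CRISPR-Cas9, and irradiated vector control cells (VC) had been given 8 Gy of radiation. Untreated Bub1KO and untreated VC cells had none. The medium of all 4 groups was DMEM plus fetal bovine serum, per the labels' protocols. How long after irradiation RNA was taken, how many Bub1KO lines were made and which guide was used were not given in the sources used here. Nothing in the labels ties replicates to separate cultures, so the p-values reflect spread among these libraries alone, and that spread may be technical.

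Cells build cholesterol from acetyl-CoA by way of mevalonate, isoprenoid diphosphates, squalene and lanosterol. The transcription factor SREBP-2, encoded by Srebf2, switches these enzymes on when sterol in the endoplasmic reticulum runs low: Scap carries it to the Golgi for cleavage, and Insig proteins hold Scap back when sterol is plentiful. SREBP-1, encoded by Srebf1, is known mainly for the fatty acid enzymes, in which Acly supplies acetyl-CoA, Acaca makes malonyl-CoA, Fasn builds palmitate, Elovl6 lengthens it and the Scd desaturases place the first double bond. SREBPs act at promoters together with NF-Y, which binds CCAAT, and Sp1, which binds GC boxes. Dividing cells use both products for membranes.

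The promoters of 5 members are printed to set sterol enzymes that rose with irradiation beside Fasn and Elovl6, the fatty acid enzymes with the largest changes. Each runs from 250 bases before to 50 after a start site in RefSeq's GRCm38.p6 table, 5′ to 3′ on the gene's strand. Capitals mark CCAAT or its reverse complement ATTGG and, in Hmgcs1, the sterol regulatory element TCACNCCAC.
Hmgcs1, chr13:119690101-119690400, plus strand: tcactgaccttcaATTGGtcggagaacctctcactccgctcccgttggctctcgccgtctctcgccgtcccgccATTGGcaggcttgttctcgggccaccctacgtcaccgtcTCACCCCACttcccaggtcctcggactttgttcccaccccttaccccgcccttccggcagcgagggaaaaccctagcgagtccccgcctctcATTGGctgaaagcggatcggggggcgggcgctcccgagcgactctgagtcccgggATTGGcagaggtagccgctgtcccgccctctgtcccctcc
Hsd17b7, chr1:169969156-169969455, minus strand: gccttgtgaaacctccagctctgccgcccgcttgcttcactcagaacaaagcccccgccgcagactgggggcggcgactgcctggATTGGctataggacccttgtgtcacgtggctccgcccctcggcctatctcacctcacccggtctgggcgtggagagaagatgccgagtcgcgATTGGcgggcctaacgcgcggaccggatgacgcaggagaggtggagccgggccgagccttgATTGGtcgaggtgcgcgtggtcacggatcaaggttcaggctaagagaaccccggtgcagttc
Tm7sf2, chr19:6067801-6068100, minus strand: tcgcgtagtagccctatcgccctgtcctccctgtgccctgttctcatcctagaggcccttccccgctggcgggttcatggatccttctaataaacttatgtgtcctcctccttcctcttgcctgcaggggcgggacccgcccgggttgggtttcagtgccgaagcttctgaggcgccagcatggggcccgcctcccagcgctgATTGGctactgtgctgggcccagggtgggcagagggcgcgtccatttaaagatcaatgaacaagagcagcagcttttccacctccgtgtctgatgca
Fasn, chr11:120824498-120824797, minus strand: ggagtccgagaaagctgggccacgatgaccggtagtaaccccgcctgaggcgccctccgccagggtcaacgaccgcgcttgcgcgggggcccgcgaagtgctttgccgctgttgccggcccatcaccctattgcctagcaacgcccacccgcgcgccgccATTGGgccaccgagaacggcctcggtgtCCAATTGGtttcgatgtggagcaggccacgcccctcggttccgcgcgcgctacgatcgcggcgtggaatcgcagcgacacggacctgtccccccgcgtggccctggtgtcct
Elovl6, chr3:129532136-129532435, plus strand: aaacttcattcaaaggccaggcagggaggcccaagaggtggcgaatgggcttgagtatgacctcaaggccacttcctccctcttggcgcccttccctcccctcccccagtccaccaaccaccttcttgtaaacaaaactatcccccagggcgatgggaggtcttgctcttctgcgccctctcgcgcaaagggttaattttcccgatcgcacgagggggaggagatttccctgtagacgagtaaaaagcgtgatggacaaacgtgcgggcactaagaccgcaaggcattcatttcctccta

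RefSeq's table held a promoter for 24 of the 30 members, counting genes with several start sites once if any of them matched; Stard4, Scd2, Fdft1, Sqle, Fdps and Scd1 had none. CCAAT on either strand stood in 14 of the 15 sterol enzymes with a promoter (93.3%), all but Acat2. It stood in 2 of 4 fatty acid enzymes, Acly and Fasn, and in 3 of 5 genes of sterol control and transport, against 41.1% of the 27025 genes in the table. GGGCGG, the Sp1 box, on either strand, stood in 14 of the 15 sterol enzymes, in 1 of 4 fatty acid enzymes and in all 5 genes of sterol control and transport that had a promoter, against 38.2% of all genes. TCACNCCAC on either strand was found in Hmgcs1, 137 bases before its start site, and in no other of the 24, against 1.44% of all genes. In Fasn, 2 of the 3 CCAAT matches overlap in the run CCAATTGG. A match is a run of letters and not a known site.

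**Figure D1:**
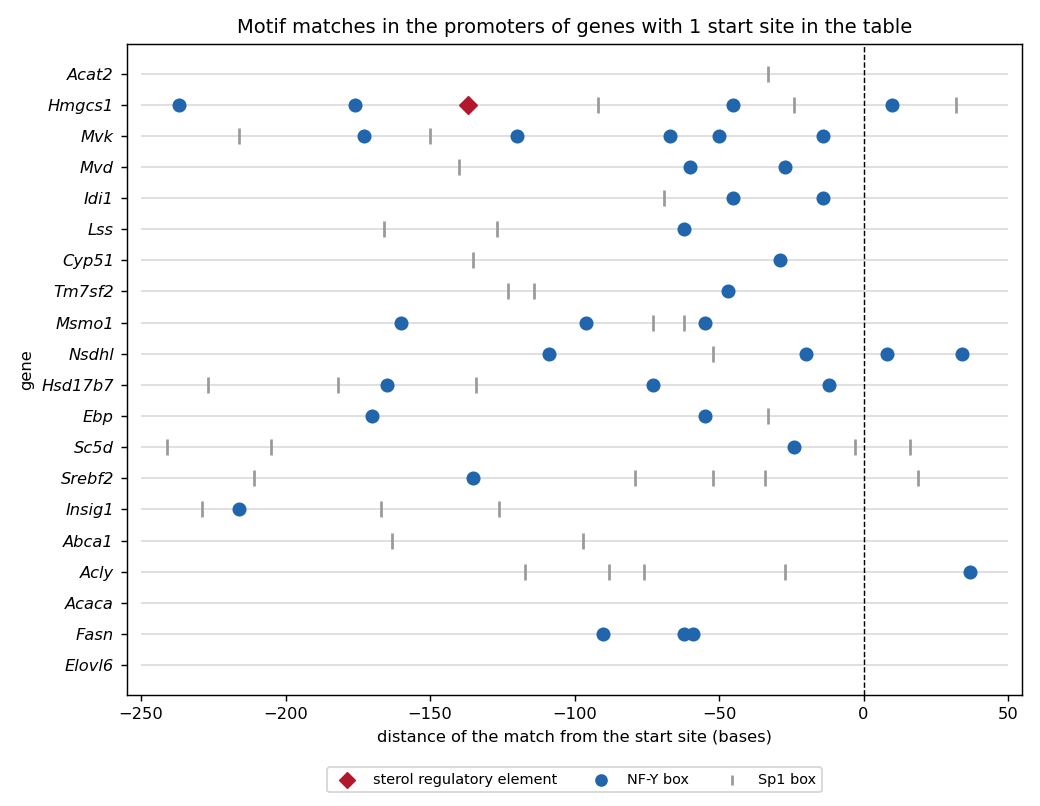
Matches to the sterol regulatory element (red diamonds), the NF-Y box CCAAT (blue circles) and the Sp1 box GGGCGG (grey bars), either strand, by distance in bases from the start site, for members with 1 promoter in the table. The sterol enzymes from Hmgcs1 to Sc5d each carry at least 1 blue circle, while Elovl6 and Acaca carry no mark.

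Libraries held 19380726 to 33087366 reads in genes. Values are normalized counts, which are read counts divided by 1 size factor per library. Bub1 RNA separated the genotypes without overlap at each treatment, at 886, 989 and 1119.8 in irradiated Bub1KO against 1484, 1461 and 1507 in irradiated VC, and 1834, 1565 and 1588 in untreated Bub1KO against 2752, 3185 and 2859 in untreated VC. The 7 melanocyte markers summed to 555547 to 578932 normalized counts in irradiated Bub1KO, 430616 to 445913 in irradiated VC, 542890 to 552089 in untreated Bub1KO and 386911 to 404327 in untreated VC, so the sum was higher in Bub1KO. Tyr and Dct were higher in Bub1KO at both treatments and Pmel and Mlana after irradiation, while after irradiation Sox10 (-0.24 log2), Tyrp1 (-0.12) and Mitf (-0.11) did not pass. Leukocyte markers summed to 209 to 225 in irradiated Bub1KO, 101 to 131 in irradiated VC, 18.3 to 21.1 in untreated Bub1KO and 22.7 to 26.5 in untreated VC; nearly all of this was Cd68, and Adgre1 and Cd3e were at 0 reads in all 12 libraries. The 6 fibroblast and endothelial markers summed to 190 to 235 in irradiated Bub1KO, 295 to 303 in irradiated VC, 81.3 to 129 in untreated Bub1KO and 90.7 to 94.2 in untreated VC, and epithelial, adipocyte and liver markers to at most 5.16. The part of these shifts in the results was not tested. In bulk RNA, fewer cells of a kind and less RNA per cell cannot be told apart.

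One library stood apart, and it touches many of the results. In untreated Bub1KO replicate 1, the median deviation of GC-rich genes (55.1% or more) was -0.77 log2 relative to that of GC-poor genes (43.8% or less). This gap was 0.04 and 0.09 in replicates 2 and 3, between -0.39 and -0.14 across untreated VC, and between 0.08 and 0.38 across the irradiated libraries, so this gap also moved with irradiation. All 7 members with transcripts of high GC content (55.1% or more; Mvd, Pmvk, Mvk, Srebf1, Srebf2, Scap and Fasn) were lowest in that replicate within its group. Fasn had 4381, 10664 and 9999 in the 3 untreated Bub1KO libraries, Mvk 209, 498 and 473, and Srebf1 908, 1967 and 1846. Of the other 23 members, 12 were highest there, 7 lowest and 4 between. Across the 30 members, the library's log2 deviation from its group fell with GC content (Pearson r = -0.855, against -0.550 over 14707 tested genes; a description, since all points come from 1 library). For several of the members that this library moves most, values are given with and without it. Log2 differences of single genes outside the members are given with it only.

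**Figure D2:**
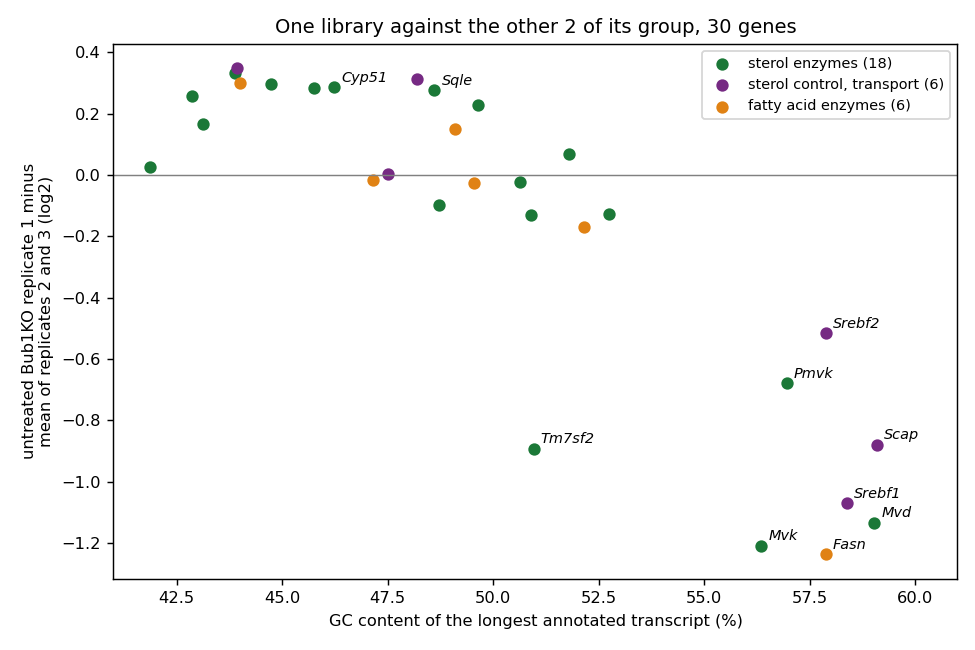
GC content of each member's longest transcript (x axis, %) against the log2 value in untreated Bub1KO replicate 1 minus the mean of replicates 2 and 3 (y axis). The 7 members above 55.1% GC lie at -0.51 or below, and Tm7sf2 is the only other member below -0.45.

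Per kilobase of annotated exon, the members spanned a wide range. Scd2, a stearoyl-CoA desaturase, stood far above the rest, at 13524 ± 547 normalized counts per kb in irradiated Bub1KO, 11141 ± 314 in irradiated VC, 15792 ± 161 in untreated Bub1KO and 14005 ± 696 in untreated VC (SD, n = 3 each). In irradiated Bub1KO it was followed by Acly at 1559 ± 119, Scd1 at 1459 ± 77.9 and Insig1 at 1255 ± 48.5 normalized counts per kb; Acly and Scd1 were within their SD of each other. At the other end of that group lay Abca1 at 64.6 ± 3.78, Tm7sf2 at 52.7 ± 1.22, and Fdps and Idi1 at 32.3 ± 2.25 and 28.0 ± 8.93, which were not separated by their SD. Fdps has 6 and Idi1 has 4 other genes in the annotation that hold its sequence (at least 90% identity over at least 300 bases), most of them pseudogenes, so the levels of both are uncertain: how the counting treated reads that map to several places was not given in the sources used here. In all, 9 members have such a match. For Hmgcs1, Fdft1, Idi1 and Fdps the matches include a gene that overlaps the member's own exons and is not a separate copy. Scd2 and Scd1 are 95.5% identical over 623 bases.

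**Figure D3:**
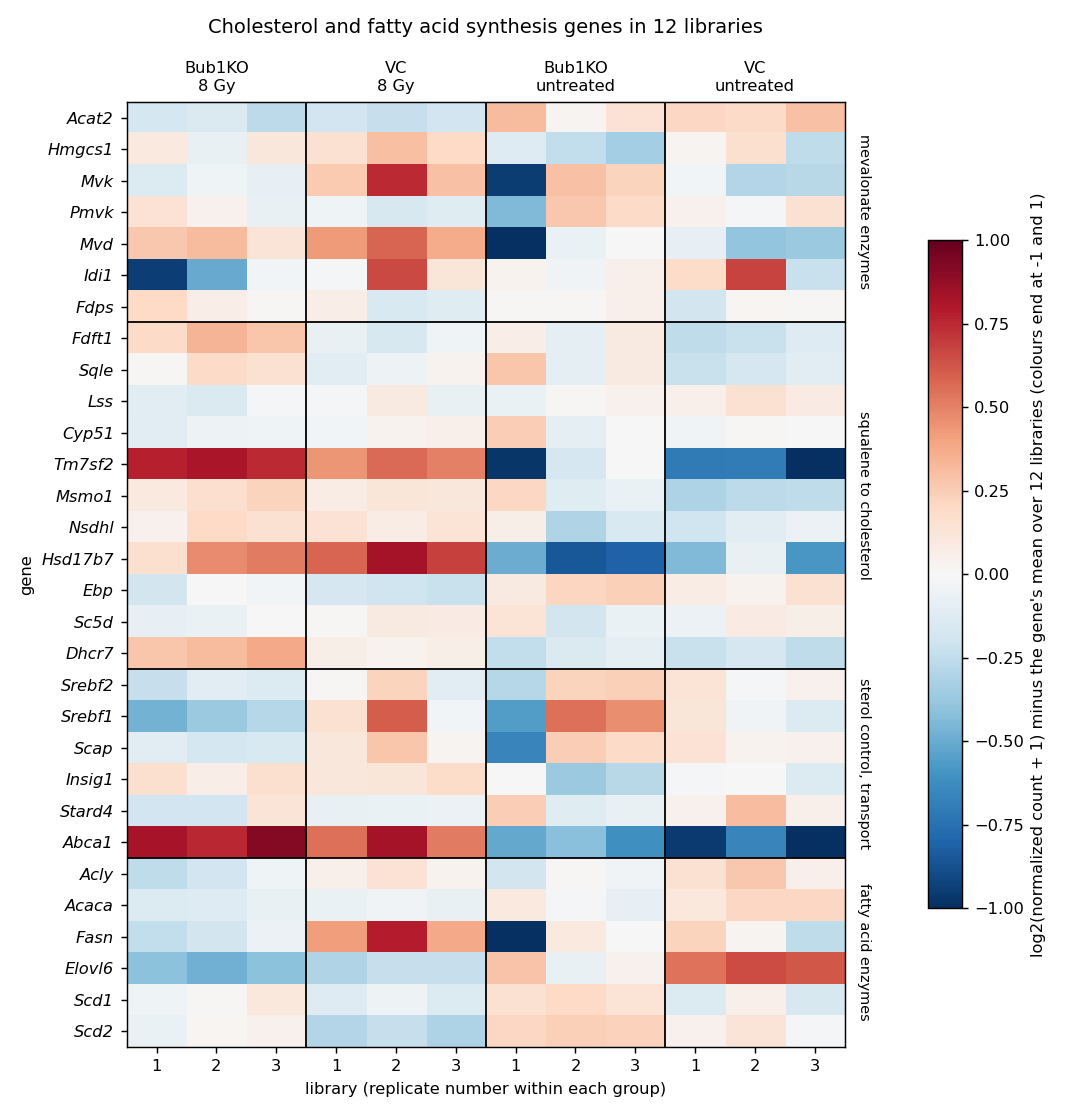
Log2(normalized count + 1) of each member minus its mean over the 12 libraries, with genes in pathway order (rows) and libraries by group (columns). Hsd17b7 and Abca1 are red in all irradiated libraries and blue in all untreated ones, Elovl6 is blue in all irradiated libraries and red in untreated VC, and untreated Bub1KO replicate 1 is dark blue for Mvk, Mvd, Tm7sf2 and Fasn.

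Among the members that passed with irradiation, more sterol enzymes rose than fell in both genotypes, and the fatty acid enzymes fell. Tests were limma fits on log2(normalized count + 1) over 14721 genes with Benjamini-Hochberg adjustment, called at an adjusted p under 0.05, and differences on this scale understate the change of low genes. In irradiated against untreated Bub1KO, 7 of the 18 sterol enzymes rose (Hmgcs1, Mvd, Fdft1, Tm7sf2, Nsdhl, Hsd17b7 and Dhcr7) and 2 fell (Acat2 and Ebp). Of the 6 fatty acid enzymes 2 fell (Elovl6 and Scd2) and the other 4 did not pass, and of the 6 genes of sterol control and transport 2 rose (Insig1 and Abca1). That made 9 members higher and 4 lower, or 13 of 30, where 49.4% of all tested genes were called, 25.4% higher and 23.9% lower. In irradiated against untreated VC, 7 sterol enzymes rose (Mvk, Mvd, Tm7sf2, Msmo1, Nsdhl, Hsd17b7 and Dhcr7) and Acat2 and Ebp fell again. There 3 fatty acid enzymes fell (Acaca, Elovl6 and Scd2) and the other 3, Fasn among them, did not pass. Abca1 was the 1 gene of sterol control and transport that rose. That made 8 members higher and 5 lower, where 53.4% of all tested genes were called, 27.6% higher and 25.8% lower. The shares of members called lie near those of all genes, so these counts, and their split by branch, are no result about the members.

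The median log2 change of the sterol enzymes was 0.064 in Bub1KO and 0.12 in VC. That of the fatty acid enzymes was -0.13 in Bub1KO and -0.16 in VC, and that of sterol control and transport -0.084 in Bub1KO and 0.13 in VC, against 0.028 in Bub1KO and 0.017 in VC over all tested genes. In Bub1KO, edgeR on the recovered reads called 9 members higher and 5 lower (49.9% of genes) and DESeq2 9 and 4 (48.5%); in VC both called 8 and 5 (54.3% of genes by edgeR and 52.7% by DESeq2). With GC trends removed, 11 members were higher and 9 lower in Bub1KO, where 54.4% of genes were called, and 12 and 8 in VC, where 57.0% were. Without untreated Bub1KO replicate 1, 10 members were higher and 8 lower in Bub1KO, where 51.4% of genes were called, and 11 and 5 in VC, where 61.3% were and Fasn was among the higher.

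Averaged over each branch, the log2 deviation of the 18 sterol enzymes from each gene's mean over the 12 libraries was 0.085 ± 0.049 in irradiated Bub1KO, 0.123 ± 0.047 in irradiated VC, -0.092 ± 0.074 in untreated Bub1KO and -0.116 ± 0.055 in untreated VC (SD, n = 3 each). That of the 6 fatty acid enzymes was -0.142 ± 0.063 in irradiated Bub1KO, -0.015 ± 0.069 in irradiated VC, 0.007 ± 0.097 in untreated Bub1KO and 0.150 ± 0.074 in untreated VC. The sterol mean of each irradiated library lay above that of each untreated library. Hsd17b7 and Tm7sf2, the sterol enzymes with the largest rises, weigh most on this mean. The median over the sterol enzymes differed less, at 0.034 to 0.082 in the irradiated and -0.118 to 0.026 in the untreated libraries, without overlap. No such mean or median over all tested genes is set beside them. For the fatty acid mean the irradiated libraries lay below the untreated ones within VC and, at -0.19 to -0.072 against -0.10 to 0.075, overlapped with them within Bub1KO. That overlap came from untreated Bub1KO replicate 1 alone, since replicates 2 and 3, at 0.075 and 0.049, lay above every irradiated Bub1KO library.

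**Figure D4:**
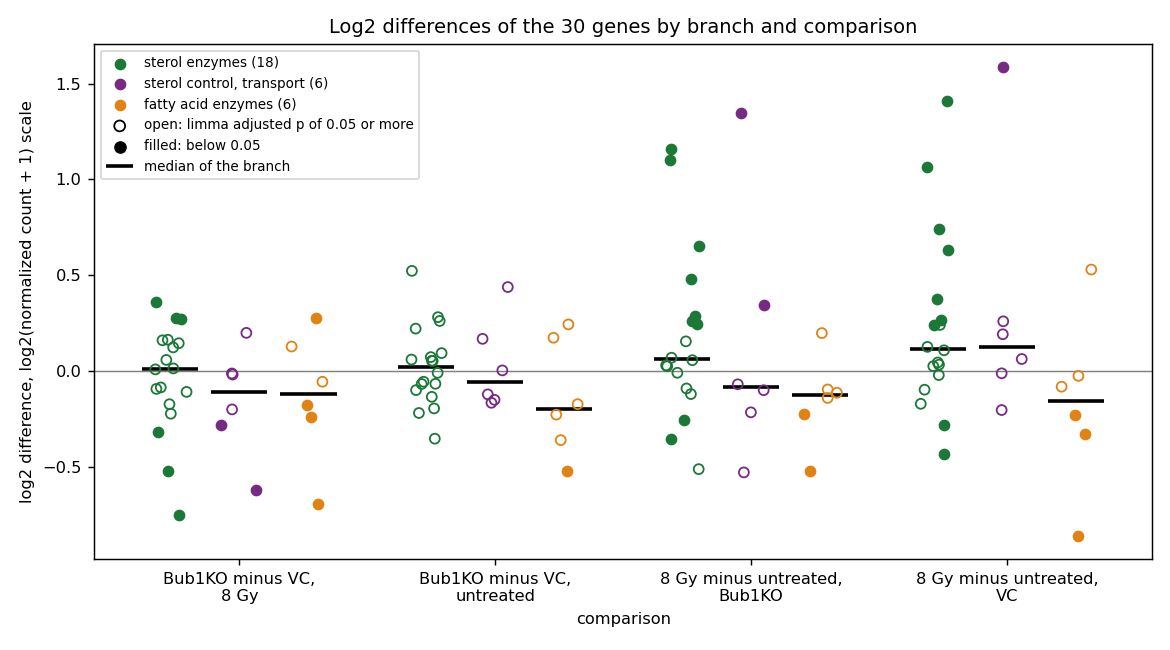
Log2 difference of each member (y axis) in 4 comparisons (x axis), split into sterol enzymes, genes of sterol control and transport, and fatty acid enzymes. Filled points passed an adjusted p of 0.05 and black lines are branch medians; with irradiation the filled green points lie mostly above 0, up to 1.41, and the filled orange points below, down to -0.86.

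Among the mevalonate enzymes, Hmgcs1, the HMG-CoA synthase that commits acetyl-CoA units to the pathway (ENSMUSG00000093930.2, GRCm38 chromosome 13, 119690379 to 119708260), had normalized counts of 2488, 2215 and 2524 in irradiated Bub1KO and 2592, 2866 and 2678 in irradiated VC. Without irradiation Hmgcs1 had 2127, 1960.3 and 1835 in Bub1KO and 2368, 2609 and 1949 in VC. With irradiation it rose by 0.29 log2 (SE 0.101, limma adjusted p = 0.03) in Bub1KO, where the groups did not overlap, a call that ended in 4 of 22 alternatives. It differed by 0.24 log2 (SE 0.101, limma adjusted p = 0.0585) in VC, where the groups overlapped. Mvd, the mevalonate diphosphate decarboxylase, had 725, 748 and 655 in irradiated Bub1KO and 807, 899.5 and 778 in irradiated VC. Without irradiation Mvd had 266, 573 and 598 in Bub1KO and 568, 458 and 464 in VC. It rose in both genotypes without overlap, by 0.65 log2 (SE 0.227, limma adjusted p = 0.0279) in Bub1KO and 0.74 log2 (SE 0.227, limma adjusted p = 0.0136) in VC; its transcript is GC-rich, and with GC trends removed from each library the rise was 0.31 and 0.25 (limma adjusted p = 0.0163 in Bub1KO and 0.0419 in VC). Without the replicate that stood apart the Mvd rise in Bub1KO was 0.28 (limma adjusted p = 0.0338). The Mvd call ended in 3 of 22 alternatives in Bub1KO and in 1 of 22 in VC.

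Mvk, the mevalonate kinase (ENSMUSG00000041939.14, GRCm38 chromosome 5, 114444269 to 114460591), had 369, 393 and 382 in irradiated Bub1KO and 488, 679.9 and 497 in irradiated VC. Without irradiation Mvk had 209, 498 and 473 in Bub1KO and 399, 332 and 334 in VC. Its 3 irradiated Bub1KO libraries lay below all 3 irradiated VC libraries, a difference of -0.52 log2 (SE 0.114, limma adjusted p = 0.00407). Mvk lost this call in 2 of 17 alternatives and did not pass in the authors' deposited table. Within VC it rose with irradiation by 0.63 log2 (SE 0.250, limma adjusted p = 0.0464), a call that ended in 12 of 22 alternatives; with GC trends removed the value was 0.37 (limma adjusted p = 0.0653). Within Bub1KO the difference was 0.057 (limma adjusted p = 0.867) and, without the replicate that stood apart, -0.35 (limma adjusted p = 0.0343). Pmvk, the next kinase, passed in no comparison. With GC trends removed it fell with irradiation, with differences of -0.21 in Bub1KO and -0.49 in VC, and was higher in irradiated Bub1KO than in irradiated VC (0.23).

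Acat2, the cytosolic thiolase that joins acetyl-CoA units, had 1709, 1747 and 1605 in irradiated Bub1KO and 1689, 1646 and 1690.4 in irradiated VC. Without irradiation Acat2 had 2399.7, 1964 and 2132 in Bub1KO and 2222, 2206 and 2355 in VC. It fell with irradiation without overlap, with differences of -0.36 log2 (SE 0.0769, limma adjusted p = 0.00167) in Bub1KO and -0.43 log2 (SE 0.0769, limma adjusted p = 0.000357) in VC. It shares 445 aligned bases with the opposite strand of Tcp1, a chaperonin gene that had 15786, 16799 and 16706 in irradiated Bub1KO, 16826, 16441 and 17407 in irradiated VC, 26602, 21438 and 23409 in untreated Bub1KO and 24689.9, 24341 and 26896 in untreated VC and fell too, with differences of -0.53 log2 in Bub1KO and -0.58 log2 in VC. How much of the Acat2 count is Tcp1 reads was not tested. Idi1, the isomerase of isopentenyl diphosphate, had 69.1, 94.0 and 131 in irradiated Bub1KO and 133, 212 and 146 in irradiated VC. Without irradiation Idi1 had 137, 131 and 139 in Bub1KO and 153, 214 and 115 in VC. It was lower without overlap in irradiated Bub1KO than in irradiated VC (-0.75 log2, SE 0.216, limma adjusted p = 0.019), a call that ended in 5 of 17 alternatives. Fdps, which makes farnesyl diphosphate, passed in no comparison.

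Of the enzymes from squalene to cholesterol, Hsd17b7, a 3-ketosteroid reductase (ENSMUSG00000026675.12, GRCm38 chromosome 1, 169949535 to 169969241), and Tm7sf2, a sterol C14 reductase (ENSMUSG00000024799.16, GRCm38 chromosome 19, 6062821 to 6068373), rose most with irradiation. Hsd17b7 had 369, 459 and 473 in irradiated Bub1KO and 494, 587 and 532 in irradiated VC. Without irradiation Hsd17b7 had 234, 183 and 188 in Bub1KO and 243, 313 and 221 in VC. The irradiated libraries lay above every untreated library, with rises of 1.10 log2 (SE 0.146, limma adjusted p = 3.15e-05) in Bub1KO and 1.06 log2 (SE 0.146, limma adjusted p = 4.12e-05) in VC. Tm7sf2 had 232, 238 and 227 in irradiated Bub1KO, 183, 199.7 and 192 in irradiated VC, 68.1, 120.1 and 135 in untreated Bub1KO and 82.1, 82.6 and 54.2 in untreated VC, again without overlap between irradiated and untreated libraries. It rose by 1.16 log2 (SE 0.219, limma adjusted p = 0.000604) in Bub1KO and 1.41 log2 (SE 0.219, limma adjusted p = 0.000121) in VC. Without the replicate that stood apart, the Bub1KO rise was 0.86 (limma adjusted p = 0.000343). Tm7sf2 shares 532 exon bases on the same strand with Vps51, whose change was -0.11 log2 in Bub1KO and 0.10 in VC (limma adjusted p = 0.58 in Bub1KO and 0.581 in VC).

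Dhcr7, the reductase that makes cholesterol from 7-dehydrocholesterol (ENSMUSG00000058454.15, GRCm38 chromosome 7, 143823145 to 143848410), had 4196, 4322 and 4503 in irradiated Bub1KO and 3610.0, 3558 and 3619.9 in irradiated VC. Without irradiation Dhcr7 had 2927, 3134 and 3264 in Bub1KO and 2975, 3091 and 2908 in VC. It rose with irradiation by 0.48 log2 (SE 0.0631, limma adjusted p = 2.85e-05) in Bub1KO and 0.27 log2 (SE 0.0631, limma adjusted p = 0.00291) in VC, and was higher in irradiated Bub1KO than in irradiated VC by 0.27 log2 (SE 0.0533, limma adjusted p = 0.00216), each time without overlap. Without irradiation Bub1KO and VC overlapped (0.055 log2, SE 0.0843, limma adjusted p = 0.784). Nsdhl, which takes part in removing the C4 methyl groups, rose by 0.26 log2 (SE 0.0893, limma adjusted p = 0.0246) in Bub1KO, where the groups overlapped, and by 0.24 log2 (SE 0.0893, limma adjusted p = 0.0351) in VC. The Bub1KO call ended in 5 of 22 alternatives and the VC call in 7. Msmo1, the methylsterol oxidase of the same step, rose in VC by 0.38 log2 (SE 0.0798, limma adjusted p = 0.00129) and differed by 0.16 log2 (SE 0.0798, limma adjusted p = 0.123) in Bub1KO. Ebp, the sterol isomerase, fell, with differences of -0.25 log2 (SE 0.0703, limma adjusted p = 0.00853) in Bub1KO and -0.28 log2 (SE 0.0703, limma adjusted p = 0.00395) in VC.

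Fdft1, the squalene synthase (ENSMUSG00000021273.11, GRCm38 chromosome 14, 63145150 to 63179578), had 1908, 2115 and 2028 in irradiated Bub1KO and 1591, 1494 and 1626 in irradiated VC. Without irradiation Fdft1 had 1752, 1570.4 and 1778 in Bub1KO and 1405, 1432 and 1532 in VC. It was higher in irradiated Bub1KO than in irradiated VC without overlap (0.36 log2, SE 0.0632, limma adjusted p = 0.000988) and rose with irradiation in Bub1KO by 0.25 log2 (SE 0.0744, limma adjusted p = 0.0133), a call that ended in 3 of 22 alternatives. Fdft1 shares 774 exon bases on the opposite strand with Ctsb, the cathepsin B gene, which had 27330.1, 28380.5 and 26771 in irradiated Bub1KO and 23251, 22188 and 22657 in irradiated VC. Without irradiation Ctsb had 10349, 9602 and 10210.4 in Bub1KO and 8859.6, 8426 and 9790.3 in VC. Ctsb was also higher in irradiated Bub1KO than in irradiated VC (0.28 log2, SE 0.0540, limma adjusted p = 0.00205), and rose with irradiation by 1.45 log2 in Bub1KO and 1.33 in VC. The library kit keeps the strand, but the strand setting of the counting was not given in the sources used here, and the part of Ctsb reads in the Fdft1 count was not tested. Sqle, Lss, Cyp51 and Sc5d, which carry squalene through its epoxide and lanosterol and set the ring double bonds, passed in no comparison. With GC trends removed, Sc5d rose with irradiation in Bub1KO (0.14), and Sqle (0.18), Cyp51 (0.14) and Sc5d (0.19) rose in VC. Cyp51, for example, averaged 3774 ± 88.5 in irradiated Bub1KO, 4003 ± 121 in irradiated VC, 4119 ± 503 in untreated Bub1KO and 3930.1 ± 74.7 in untreated VC (SD, n = 3 each).

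Among the genes of sterol control and transport, Abca1, the cholesterol exporter (ENSMUSG00000015243.4, GRCm38 chromosome 4, 53030787 to 53159895), changed most. Its normalized counts were 667, 632 and 710.1 in irradiated Bub1KO and 550.4, 667 and 537 in irradiated VC. Without irradiation Abca1 had 263, 281 and 245 in Bub1KO and 192, 237 and 159 in VC. Irradiated and untreated libraries did not overlap, and it rose by 1.35 log2 (SE 0.134, limma adjusted p = 2.6e-06) in Bub1KO and 1.58 log2 (SE 0.134, limma adjusted p = 5.83e-07) in VC. Between genotypes it differed by 0.20 log2 (SE 0.0909, limma adjusted p = 0.114) after irradiation and 0.44 log2 (SE 0.161, limma adjusted p = 0.178) without it. Insig1, a brake on SREBP processing, had 3961, 3709 and 3976 in irradiated Bub1KO and 3845, 3858 and 4036 in irradiated VC. Without irradiation Insig1 had 3529.9, 2749 and 2934 in Bub1KO and 3510.2, 3537 and 3231 in VC. It rose in Bub1KO by 0.35 log2 (SE 0.0854, limma adjusted p = 0.00415) and differed in VC by 0.19 log2 (SE 0.0854, limma adjusted p = 0.0719).

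Srebf1 (ENSMUSG00000020538.15, GRCm38 chromosome 11, 60199089 to 60222581) had 964, 1039 and 1098 in irradiated Bub1KO and 1488, 2043 and 1312 in irradiated VC. Without irradiation Srebf1 had 908, 1967 and 1846 in Bub1KO and 1455, 1308 and 1219.7 in VC. After irradiation every Bub1KO library lay below every VC library (-0.62 log2, SE 0.123, limma adjusted p = 0.0023). Srebf1 lost this call in 2 of 17 alternatives and did not pass in the authors' deposited table. Scap, the SREBP escort, had 2140.1, 2037 and 2068 in irradiated Bub1KO against 2479, 2788 and 2340.4 in irradiated VC (-0.28 log2, SE 0.0681, limma adjusted p = 0.00749). Scap lost this call in 4 of 17 alternatives, among them with GC trends removed (-0.11, limma adjusted p = 0.134). Srebf2 had 4528, 4942 and 4836 in irradiated Bub1KO against 5356, 6190.5 and 4940.3 in irradiated VC, which overlapped by 1 library (-0.20 log2, SE 0.0752, limma adjusted p = 0.0604). With irradiation Srebf1, Srebf2 and Scap passed in neither genotype; Srebf2, for example, differed by -0.21 log2 in Bub1KO and -0.011 in VC. With GC trends removed all 3 were lower in Bub1KO, at -0.84 for Srebf1, -0.49 for Srebf2 and -0.42 for Scap. In VC Srebf2 (-0.41, limma adjusted p = 4.41e-05) and Scap (-0.44, limma adjusted p = 2.55e-05) were then lower too. edgeR called Srebf1 lower in Bub1KO (adjusted p = 0.0483). Without the replicate that stood apart all 3 fell in Bub1KO: Srebf1 differed by -0.88 log2 (limma adjusted p = 5.04e-05), Srebf2 by -0.39 (limma adjusted p = 0.000913) and Scap by -0.36 (limma adjusted p = 0.000658). Stard4, a sterol carrier protein, passed in no comparison.

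Elovl6, which lengthens palmitate to stearate (ENSMUSG00000041220.10, GRCm38 chromosome 3, 129532355 to 129638495), was the fatty acid enzyme with the largest change with irradiation. Its normalized counts were 1521, 1445 and 1524 in irradiated Bub1KO and 1638, 1721 and 1723 in irradiated VC. Without irradiation Elovl6 had 2464, 1919 and 2083 in Bub1KO and 2938, 3176 and 3105 in VC. The 4 groups did not overlap, with irradiated Bub1KO lowest and untreated VC highest. It fell with irradiation, with differences of -0.52 log2 (SE 0.0842, limma adjusted p = 0.000184) in Bub1KO and -0.86 log2 (SE 0.0842, limma adjusted p = 2.18e-06) in VC. It was lower in Bub1KO than in VC both after irradiation (-0.18 log2, SE 0.0591, limma adjusted p = 0.0359) and without it (-0.52 log2, SE 0.107, limma adjusted p = 0.0303); the call after irradiation ended in 9 of 17 alternatives and the call without it in 7 of 17.

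Fasn, the fatty acid synthase (ENSMUSG00000025153.9, GRCm38 chromosome 11, 120805846 to 120824547), had 8388, 8789 and 9578 in irradiated Bub1KO and 13326, 17221 and 12941 in irradiated VC. Without irradiation Fasn had 4381, 10664 and 9999 in Bub1KO and 11631, 10145 and 8359 in VC. Every irradiated Bub1KO library lay below every irradiated VC library, a difference of -0.69 log2 (SE 0.0926, limma adjusted p = 0.000153). With GC trends removed it was -0.55 (limma adjusted p = 0.000252). Fasn lost this call in 1 of 17 alternatives and did not pass in the authors' deposited table. Without irradiation the genotypes overlapped (-0.36 log2, SE 0.298, limma adjusted p = 0.567), and without the replicate that stood apart the difference was 0.053 (limma adjusted p = 0.787). Within Bub1KO, irradiated and untreated libraries overlapped (0.20 log2, SE 0.254, limma adjusted p = 0.543), and without the replicate that stood apart the difference was -0.21 (limma adjusted p = 0.168). Within VC, irradiated libraries lay above untreated ones (0.53 log2, SE 0.254, limma adjusted p = 0.0939); without untreated Bub1KO replicate 1, which enters this fit only through the shared spread, the same difference passed (limma adjusted p = 0.000688), and with GC trends removed it was 0.13 (limma adjusted p = 0.485).

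Scd2 (ENSMUSG00000025203.6, GRCm38 chromosome 19, 44293674 to 44306864) had 70531, 74930.3 and 76229.5 in irradiated Bub1KO and 60156, 62831 and 59638 in irradiated VC. Without irradiation Scd2 had 85312, 87011 and 86546 in Bub1KO and 76183, 80483 and 72902 in VC. It was higher in irradiated Bub1KO than in irradiated VC (0.28 log2, SE 0.0606, limma adjusted p = 0.00392) without overlap, a call that ended in 1 of 17 alternatives. With irradiation it fell, with differences of -0.22 log2 (SE 0.0699, limma adjusted p = 0.0162) in Bub1KO and -0.33 log2 (SE 0.0699, limma adjusted p = 0.00135) in VC. The Bub1KO call ended in 3 of 22 alternatives. Acly had 7717, 8044 and 8933 in irradiated Bub1KO against 9518, 10182 and 9442 in irradiated VC and was lower without overlap (-0.24 log2, SE 0.0631, limma adjusted p = 0.0116), a call that ended in 2 of 17 alternatives. Acaca fell with irradiation in VC (-0.23 log2, SE 0.0657, limma adjusted p = 0.00936), and Scd1 passed in no comparison.

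**Figure D5:**
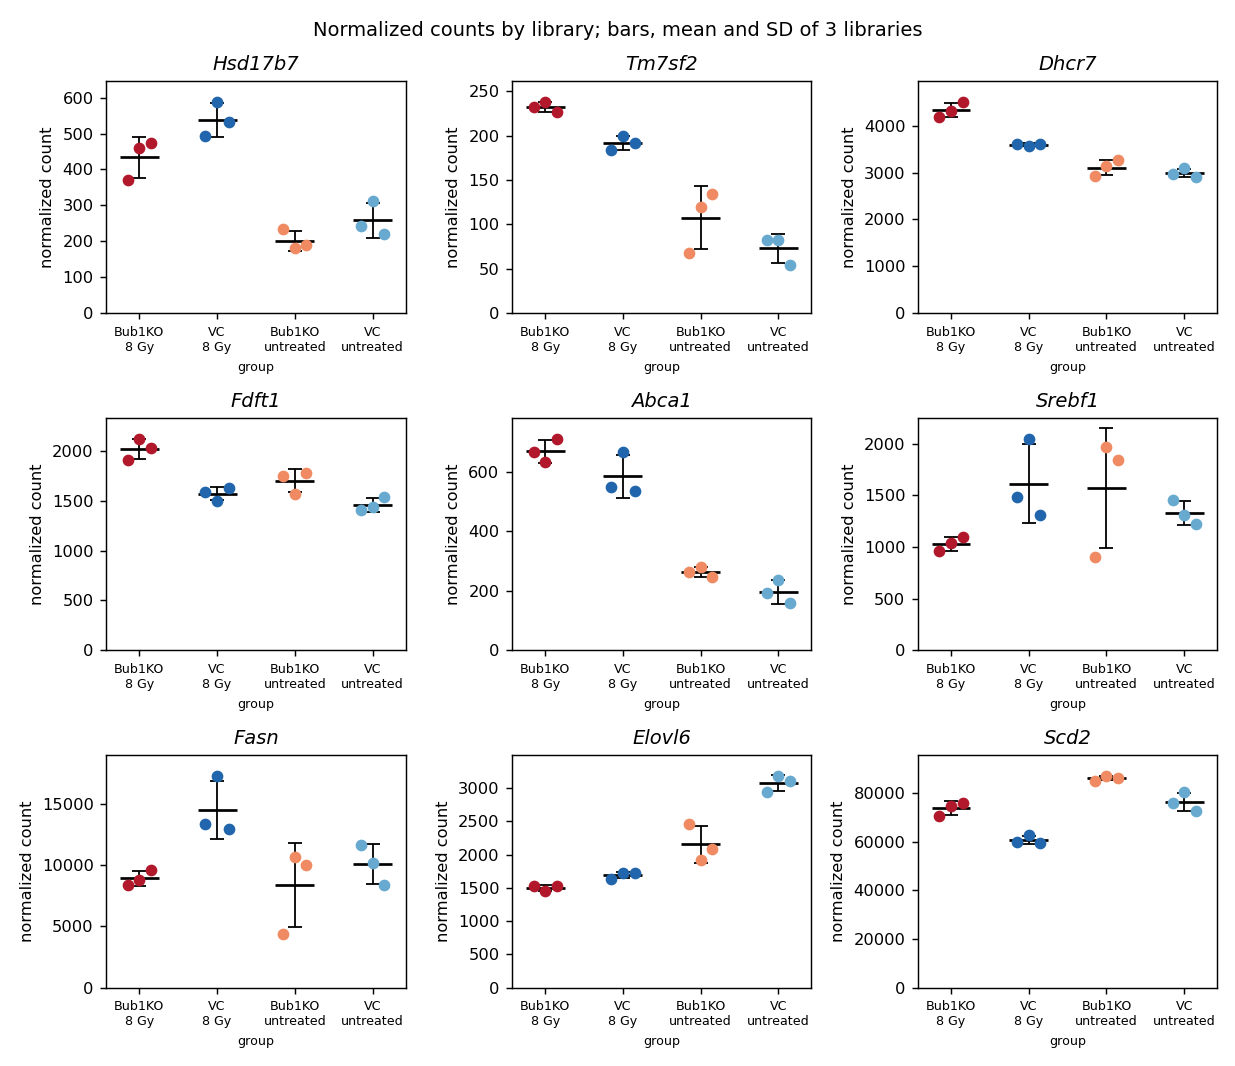
Normalized counts (y axes, from 0) of 9 members in the 12 libraries by group, with bars for the mean and SD of 3 libraries. Hsd17b7, Tm7sf2 and Abca1 are high in both irradiated groups, Elovl6 is low in both, and Fasn lies at 8388 to 9578 in irradiated Bub1KO against 12941 to 17221 in irradiated VC.

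After irradiation the members called between the genotypes lay in both branches and in both directions. In irradiated Bub1KO against irradiated VC, 4 of the 30 members were higher (Fdft1, Tm7sf2, Dhcr7 and Scd2) and 8 lower (Mvk, Idi1, Hsd17b7, Srebf1, Scap, Acly, Fasn and Elovl6), where 30.7% of all tested genes were called, 14.3% higher and 16.4% lower. The share of sterol enzymes called, 33.3%, is near that of all genes and is no result about them, and over all members it was 40.0%. The sterol enzymes had 3 higher and 3 lower of 18 with a median log2 difference of 0.012. The fatty acid enzymes had 1 higher and 3 lower of 6 with a median of -0.12, and sterol control and transport 2 lower of 6 with a median of -0.11, against -0.0055 over all tested genes. edgeR called 4 members higher and 8 lower (30.7% of genes), DESeq2 3 and 8 (27.6%), and limma with GC trends removed 4 and 8 (33.7%), with Pmvk and Hmgcs1 in place of Tm7sf2 and Scap. Tm7sf2 (0.28 log2, SE 0.0967, limma adjusted p = 0.0453) lost its call in 12 of 17 alternatives, and Hsd17b7 (-0.31 log2, SE 0.103, limma adjusted p = 0.0342) in 6. The 8 lower calls came from a fit on the 6 irradiated libraries. Fitted with all 12 libraries, 3 members were higher and none passed lower, but far fewer of all tested genes passed in that fit too. With 11, leaving out untreated Bub1KO replicate 1, 3 were higher and 7 lower, where 28.1% of genes were called. In the authors' deposited table, which gives VC over Bub1KO, 3 members were higher in Bub1KO (Fdft1, Dhcr7 and Scd2) and 2 lower (Idi1 and Acly) at an adjusted p under 0.05, where 18.1% of its genes passed.

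Without irradiation 1 of the 30 members passed. Elovl6 was lower in untreated Bub1KO than in untreated VC, and 0 members were higher, where 4.01% of all tested genes were called, 2.31% higher and 1.71% lower. At an unadjusted p under 0.05, where 19.1% of genes lay, limma had 5 members higher and 2 lower. edgeR (4.36% of genes called) and DESeq2 (5.79%) also called 0 higher and 1 lower after adjustment, and at an unadjusted p under 0.05 edgeR had 5 members higher and 4 lower and DESeq2 4 higher and 1 lower. With GC trends removed 2 members were higher (Sqle and Msmo1) and 1 lower (Elovl6), where 11.4% of genes were called. The median log2 difference of the sterol enzymes was 0.022, that of the fatty acid enzymes -0.20 and that of all tested genes -0.0084. Without untreated Bub1KO replicate 1, 4 members were higher (Mvk, Tm7sf2, Srebf1 and Scd1) and 2 lower (Elovl6 and Insig1), where 18.6% of genes were called; a fit on all 11 other libraries had 6 higher and 4 lower, where 24.6% were. Mvk then differed by 0.46 log2 (limma adjusted p = 0.0176), Srebf1 by 0.52 (limma adjusted p = 0.00287) and Tm7sf2 by 0.82 (limma adjusted p = 0.0192). The authors' deposited table had 4 members higher in Bub1KO (Abca1, Msmo1, Scd1 and Scd2) and 1 lower (Elovl6), where 13.1% of its genes passed.

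The interaction, which is the Bub1KO minus VC difference after irradiation less the same difference without it, passed for 0 of the 30 members, where 0.55% of genes passed (0.136% higher and 0.414% lower). At an unadjusted p under 0.05, where 12.1% of genes lay, there were 3 members by limma: Elovl6 (0.34 log2, SE 0.119, limma adjusted p = 0.253), Dhcr7 (0.22 log2, SE 0.0892, limma adjusted p = 0.342) and Srebf1 (-0.79 log2, SE 0.328, limma adjusted p = 0.349). edgeR (0.55% of genes called) and DESeq2 (1.92%) called 0 members, with 3 by edgeR and 4 by DESeq2 at an unadjusted p under 0.05. Without untreated Bub1KO replicate 1, 1 member was higher, Elovl6 (0.44, limma adjusted p = 0.00457), and 6 lower, where 9.83% of genes passed: Srebf1 (-1.14, limma adjusted p = 0.00118), Mvk (-0.98, limma adjusted p = 0.00231), Fasn (-0.74, limma adjusted p = 0.0102), Mvd, Scap and Srebf2. All 6 have GC-rich transcripts, and with GC trends removed and all libraries kept only Srebf1 (-0.70, limma adjusted p = 0.0402) was lower and only Elovl6 (0.32, limma adjusted p = 0.0392) higher among the members, where 2.95% of genes passed. Library GC bias and genotype or treatment cannot be told apart where they move together.

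Other genes of sterol supply moved in both directions. Of 9 tested, 2 rose and 3 fell with irradiation in each genotype. Of all tested genes, 25.4% rose and 23.9% fell in Bub1KO, and 27.6% rose and 25.8% fell in VC. The share of this list called, 55.6%, lies near that of all genes (49.4% in Bub1KO and 53.4% in VC) and is no result about it. Insig2, a second brake on SREBP processing, rose by 0.61 log2 (SE 0.0904, limma adjusted p = 8.03e-05) in Bub1KO and 0.74 log2 (SE 0.0904, limma adjusted p = 1.59e-05) in VC, and was higher in Bub1KO than in VC after irradiation (0.42 log2, SE 0.0556, limma adjusted p = 0.000147) and without it (0.54 log2, SE 0.117, limma adjusted p = 0.0371). The call without irradiation ended in 7 of 17 alternatives. Of 7 tested genes of sterol export and storage, 5 rose with irradiation in each genotype, where 25.4% of all tested genes rose in Bub1KO and 27.6% in VC, and the other 2 did not pass. Mylip, an E3 ubiquitin ligase induced by LXR, rose by 0.73 log2 (SE 0.0790, limma adjusted p = 4.98e-06) in Bub1KO and 0.73 log2 (SE 0.0790, limma adjusted p = 5.38e-06) in VC. Apoe, a lipoprotein component, rose by 0.58 log2 (SE 0.194, limma adjusted p = 0.0235) in Bub1KO and 1.21 log2 (SE 0.194, limma adjusted p = 0.000149) in VC. Its transcript is GC-rich (59.5%), and untreated Bub1KO replicate 1 had 6709 against 11532 and 12613.5 in replicates 2 and 3.

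Of 18 other genes of fatty acid synthesis and use, 7 rose and 7 fell with irradiation in Bub1KO, where 25.4% of all tested genes rose and 23.9% fell. In VC 4 rose and 8 fell, where 27.6% of all tested genes rose and 25.8% fell. Acacb, the mitochondrial acetyl-CoA carboxylase, had 780.1, 789.8 and 715 in irradiated Bub1KO, 444, 532 and 400.1 in irradiated VC, 96.6, 184 and 182 in untreated Bub1KO and 157, 135 and 125 in untreated VC and rose by 2.35 log2 (SE 0.203, limma adjusted p = 6.72e-07) in Bub1KO and 1.71 log2 (SE 0.203, limma adjusted p = 1.15e-05) in VC. The Acacb transcript is GC-rich (56.7%), and untreated Bub1KO replicate 1, at 96.6, was the lowest of its group. Lpin1, a phosphatidate phosphatase, rose by 1.24 log2 (SE 0.0660, limma adjusted p = 1.02e-08) in Bub1KO and 1.46 log2 (SE 0.0660, limma adjusted p = 2.58e-09) in VC. Fads1 and Fads2, the desaturases of polyunsaturated fatty acids, fell in both genotypes; Fads1 differed by -0.56 log2 (SE 0.0626, limma adjusted p = 6.7e-06) in Bub1KO and Fads2 by -0.42 log2 (SE 0.0664, limma adjusted p = 0.00014). In irradiated Bub1KO against irradiated VC, 6 of the 18 were higher and 2 lower, where 14.3% of all tested genes were higher and 16.4% lower. The higher ones included Acss2, which makes acetyl-CoA from acetate (0.66 log2, SE 0.0843, limma adjusted p = 0.000111), and malic enzyme Me1, a source of NADPH (0.46 log2, SE 0.0601, limma adjusted p = 0.000119).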

How the data were processed

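Per the submitters' processing notes, the tools were STAR, HTSeq, SAMtools, Trim Galore and cutadapt, and the build was GRCm38.p6 (mm10); annotation and strand setting were not given in the sources used here. The authors deposited normalized counts, a signal of read count over 1 size factor per library (per the file headers and values), with their log2 fold change of VC over Bub1KO, its score, and p-values. The values of both tables were on 1 scale, and dividing out each library's step gave whole reads for 100% of values (tolerance 0.01 of a read). limma 3.58.1 (R 4.3.3) was fitted on log2(value + 1) for 14721 genes with at least 10 in at least 3 of 12 libraries, Benjamini-Hochberg threshold 0.05: genotype differences on their own 6 libraries, irradiation and the interaction on all 12. Alternatives used edgeR 4.0.16 and DESeq2 1.42.0 on the recovered reads, other pseudocounts, no filter, TMM factors, GC trends removed, replicate blocks and each library left out; fits with 11 libraries were added after the data were seen. Scripts were tested on simulated data. Positions, lengths and GC content come from GENCODE M21 (GRCm38), which matched 55240 identifiers. The members and lists were chosen with earlier results of these data known. Genes outside them were named by a rule (up to 2 higher and 2 lower with the smallest p per list and comparison), except Ctsb, Vps51 and Tcp1, named because they share bases with a member, and Adgre1 and Cd3e, named as markers at 0 reads.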

Additional observations from a re-analysis of the deposited data

Results flagged for a closer look

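Cd68, a lysosomal protein gene known from macrophages, responded to irradiation differently in the genotypes by a test of the difference itself. It had 224, 214 and 209 in irradiated Bub1KO and 130.1, 109.8 and 98.7 in irradiated VC. Without irradiation Cd68 had 18.3, 18.9 and 21.1 in Bub1KO and 26.5, 23.2 and 22.7 in VC. The interaction was 1.24 log2 (limma adjusted p = 0.0172), and the call was lost in 6 of 21 alternatives, each of which left out 1 library (limma adjusted p of at most 0.0706). The other leukocyte markers were at or near 0 reads.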

How the results depend on the processing

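Without irradiation, all genes called between genotypes numbered 591 by the reported fit, 329 with no filter, 1769 with 12 libraries in the fit, 3624 with 11, 1685 with GC trends removed, 312 with the replicate block and 1272 with the block and GC trends removed; members higher numbered 3 with 12 libraries, 6 with 11, 2 with GC trends removed and 1 with the block and GC trends removed, and members lower 0 with no filter or the block and 4 with 11 libraries. With 11 libraries the sterol median was 0.089 and the fatty acid median -0.058. Leaving out 1 library gave 172 to 2736 genes, 0 to 4 members higher, 0 to 2 lower, sterol medians of -0.026 to 0.089 and fatty acid medians of -0.22 to -0.058; the highest counts came without untreated Bub1KO replicate 1.

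After irradiation, 2062 genes and 1 lower member were called with no filter, and 2105 and 0 with 12 libraries, against 4512 and 8; leaving out 1 library gave 5 to 9 lower members. For irradiation in VC, 8 members were lower and the sterol median was 0.18 with GC trends removed, with or without the block. Without the block 57.0% of all tested genes were then called. Leaving out 1 library gave sterol medians of 0.091 to 0.19. For irradiation in Bub1KO, 9 were lower with GC trends removed, with or without the block, where 54.4% of all tested genes were called without it. Leaving out 1 library gave 3 to 8 lower and sterol medians of 0.059 to 0.13. These counts of lower members with 1 library left out have no share of all genes beside them and are no result about the members. The interaction passed for 435 genes with GC trends removed, 47 with the block, 261 with both and 283 by DESeq2, against 81 by limma and 33 to 1447 with 1 library left out. Members called were 1 higher and 1 lower with GC trends removed, 1 lower with the block as well, and 0 to 1 higher and 0 to 6 lower with 1 library left out.

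Directions of members that were called on either side turned as follows. Scap in VC was -0.44 with GC trends removed, with or without the block. In Bub1KO, Pmvk was -0.21 under the same settings, Sc5d 0.14 with GC trends removed, and Mvk -0.35 without untreated Bub1KO replicate 1 (-0.35 to 0.28 with 1 library left out). Some members that passed on neither side also changed sign, among them Fasn without irradiation, at 0.053 without untreated Bub1KO replicate 1. The cause was not tested. Same-numbered replicates correlated at -0.193 to 0.196. Differently numbered ones were not compared, so whether the numbers pair the libraries is not known. Depth limits Fdps, Idi1 and Tm7sf2 most, the 3 members with the fewest reads.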

Other observations

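Fatty acid oxidation genes were tested beside the synthesis genes. Of 10, 5 rose with irradiation in Bub1KO, 4 rose in VC, 5 were higher in irradiated Bub1KO than in irradiated VC, and the others did not pass; 25.4% of all tested genes rose in Bub1KO, 27.6% rose in VC and 14.3% were higher in irradiated Bub1KO. Cpt1a, the gate for fatty acids into mitochondria, had 1271, 1485 and 1608 in irradiated Bub1KO, 1323, 1466 and 1344 in irradiated VC, 1108, 1246 and 1162 in untreated Bub1KO and 807, 895 and 876 in untreated VC, and Acadl, a long-chain acyl-CoA dehydrogenase, was higher in irradiated Bub1KO than in irradiated VC (0.43 log2, SE 0.0590, limma adjusted p = 0.00017).

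Per kilobase, Scd2 made up 90.3% ± 0.212 of the summed Scd2 and Scd1 in irradiated Bub1KO, 89.3% ± 0.0539 in irradiated VC, 90.8% ± 0.165 in untreated Bub1KO and 91.2% ± 0.316 in untreated VC (SD, n = 3 each). Srebf1 made up 21.6% ± 0.704 of the summed Srebf1 and Srebf2 in irradiated Bub1KO, 27.0% ± 2.29 in irradiated VC, 25.7% ± 4.16 in untreated Bub1KO and 23.5% ± 1.14 in untreated VC; in untreated Bub1KO replicate 1 the share was 21.0%, the lowest of the 12 libraries.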
